A study of Homo sapiens with 6 samples.

Results

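Cytochrome c oxidase (complex IV) is the last enzyme of the mitochondrial respiratory chain and the site at which cyanide blocks respiration. The transcripts of 10 nuclear genes that serve its assembly (COX17, SCO1, SCO2, COX11, COX10, COX15, SURF1, COX14, LRPPRC and TACO1) were examined in HepG2 cells, an established human hepatocellular carcinoma line. The genes were chosen by name, with earlier results of these data known. The Ensembl identifiers of all 10 were found among the 57500 genes of the count files. Wild-type cells had received either vehicle or added glycine at 10 mM for 24 h, with 3 independent replicates in each group, and the medium of both groups itself contained glycine. The study asked whether glycine, which it treats as a source of endogenous cyanide, alters the transcripts of energy metabolism. The libraries held 31795489 to 58815986 counts, the deepest being glycine replicate 2. A member had between 449 and 21588 counts in a library, so all 10 passed the filter on low counts and were tested.

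Complex IV is built around the subunits MT-CO1, MT-CO2 and MT-CO3, which are encoded by mitochondrial DNA. Its catalytic centre needs copper, delivered by COX17 to SCO1, SCO2 and COX11, and heme a, made from heme b by COX10 and COX15. SURF1 and COX14 act on the maturing MT-CO1 subunit, LRPPRC stabilizes mitochondrial mRNAs and TACO1 activates translation of the MT-CO1 mRNA. Inherited loss of several of these factors causes complex IV deficiency, and hepatocytes, which are rich in mitochondria, rely on the enzyme for oxidative phosphorylation.

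The promoter windows of the members, which ran from 250 bases before to 50 bases after an annotated start, were taken from RefSeq (GRCh38.p14). Windows were found for 8 members, 9 windows in all, because COX17 had 2; COX11 and SCO2 had no entry. The windows were searched on both strands for 4 short motifs of factors known from promoters of mitochondrial genes. The ETS core CCGGAAG was present for 5 of the 8 members, against 10.3% of all 35093 windows and 16.8% of the 15855 windows of tested genes. Here and below, a member was counted if any of its windows held a match, while the shares count single windows. The following 28-base stretches show 1 match for each of these 5 members, written 5′ to 3′ on the strand of the gene, with the motif or its reverse complement in capitals. None of these matches shares a base with a match of another motif searched.

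SCO1, chr17:10697559-10697586, minus strand: ctccttccgaCTTCCGGaggaagcggaa

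SURF1, chr9:133356463-133356490, minus strand: ttcctgcgtcCCGGAAGcgcccgcgggg

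COX10, chr17:14069475-14069502, plus strand: agcccgcccgCCGGAAGtggcggcccgg

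COX15, chr10:99732118-99732145, minus strand: gctgcccgacCCGGAAGtgcttctcttt

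COX17, chr3:119677379-119677406, minus strand: agagcgactgCCGGAAGtgactgcggac

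The NRF1 motif GCGCATGC, searched because NRF1 is known to act on many respiratory chain genes, was matched for COX17 alone and occurred in 3.06% of all windows and 4.73% of those of tested genes. That stretch is shown because it lies upstream in the same window as the COX17 match above. The match overlaps another on the opposite strand, because the motif is nearly palindromic.

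COX17, chr3:119677505-119677532, minus strand: gggcctccttGCGCATGCgctgaagggg

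The YY1 motif AAGATGG was matched for COX10 and LRPPRC and in 5.84% of all windows and 6.89% of those of tested genes. The SP1 motif GGGCGG was matched for 5 members and in 44.95% of all windows and 65.2% of those of tested genes. COX14 had no match other than SP1, and TACO1 matched none of the 4 motifs. These matches describe letters in the windows and do not show that a factor binds there.

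None of the 10 transcripts passed the test between glycine and vehicle. By the quasi-likelihood test of edgeR, with Benjamini-Hochberg adjustment over all 15492 genes tested and a threshold of 0.05, 0 members passed in either direction. Over all genes tested, 13.3% were called, 6.71% higher and 6.54% lower. Before adjustment, 1 member (COX11) had a p under 0.05 by edgeR, as did 4225 of the 15492 genes tested. The Wald test of DESeq2 called COX11 lower, where it called 7.37% of genes lower. The voom method of limma called 0. Of the members, 5 had a log2 change above 0 and 5 below, with a median of 0.00, equal to the median of 0.00 over all genes tested. In these bulk libraries, fewer cells of a kind and less RNA per cell cannot be told apart.

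The 95% intervals of the fold change reached from 0.789 for COX17 to 1.285 for COX14 at their extremes. All 10 intervals lay inside a 1.5-fold difference in either direction, and those of COX17 and COX14 were the widest. A change of a member that lies within its own interval is not excluded with 3 libraries a group.

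**Figure D1:**
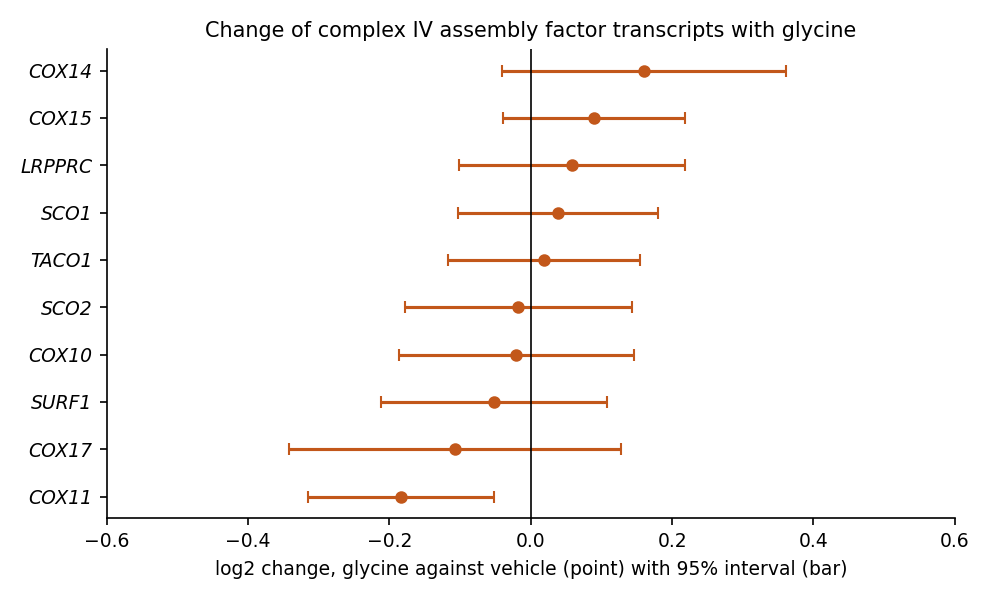
Log2 change of each assembly factor transcript with glycine against vehicle (points) with its 95% interval (bars) from edgeR, ordered by size. The interval of COX11, −0.31 to −0.05, is the only one of the 10 that leaves out 0, and its adjusted p of 0.064 misses the threshold.

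Among the copper factors, COX11, which serves the copper site of the MT-CO1 subunit, stood at 119, 126 and 123 CPM (counts scaled to a common library size) in vehicle replicates 1 to 3. In the glycine replicates it stood at 112, 108 and 104 CPM. Every glycine library was below every vehicle library, and the group means were 123 ± 3.35 and 108 ± 4.37 CPM (SD, n = 3). The log2 change was −0.18 ± 0.0608 (SE), with an adjusted p of 0.064 by edgeR. With the Wald test of DESeq2 it was −0.19, and the adjusted p was 0.0488. Over all 14 alternative settings the change of COX11 ran from −0.22 to −0.16, with adjusted p from 0.0488 to 0.192.

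The exons of COX11 (ENSG00000166260; chr17:54951902-54968785, minus strand) share 14.0% of their length with TOM1L1 and 0.9% with STXBP4, both on the opposite strand. The strand setting of the counting was not given, so reads from the shared stretches could count for either gene or for none. STXBP4 fell with glycine, from 38.4 to 31.4 CPM, by −0.30 ± 0.074 on the log2 scale (adjusted p = 0.0188, edgeR). TOM1L1 had a log2 change of 0.10, with an adjusted p of 0.387 by edgeR. The part of these neighbours in the COX11 values was not tested. The pseudogene COX11P1 had 1 count over all 6 libraries.

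COX17, the copper chaperone of the intermembrane space (ENSG00000138495; chr3:119654513-119677454, minus strand), had the widest spread. Its vehicle libraries stood at 17.6, 17.5 and 18.5 CPM and its glycine libraries at 14.1, 19.8 and 15.6 CPM. A pair of glycine libraries lay below all vehicle libraries and glycine replicate 2 lay above them, so the groups overlapped. The log2 change of −0.11 ± 0.109 had an adjusted p of 0.572 by edgeR. It rested on single libraries, at −0.27 without glycine replicate 2 (adjusted p = 0.0923, edgeR) and −0.02 without glycine replicate 1 (adjusted p = 0.945, edgeR). POPDC2 shares 17.6% of the COX17 exon length on the same strand and had at most 8 counts in a library. The pseudogene COX17P1 had 10 counts in all.

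SCO1 and SCO2, the paralogous metallochaperones of the MT-CO2 copper site, overlapped between groups. SCO1 (ENSG00000133028; chr17:10672474-10698375, minus strand) ranged from 50.5 to 54.1 CPM in vehicle and from 51.1 to 56.9 CPM in glycine. Its log2 change was 0.04 ± 0.066, with an adjusted p of 0.756 by edgeR. SCO2 (ENSG00000130489; chr22:50523568-50526439, minus strand) ranged from 27.1 to 29.3 CPM in vehicle and from 26.3 to 29.97 CPM in glycine. Its log2 change was −0.02 ± 0.0745, with an adjusted p of 0.910 by edgeR. Other genes cover 61.6% of the SCO2 exon length, the most of any member. An antisense gene (ENSG00000272821) covers 36.7% and TYMP, on the same strand, 24.9%. TYMP, which encodes thymidine phosphorylase, had a log2 change of 0.23 ± 0.081 and an adjusted p of 0.087 by edgeR, and SCO2 values are uncertain to the extent that shared reads were counted for either gene.

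**Figure D2:**
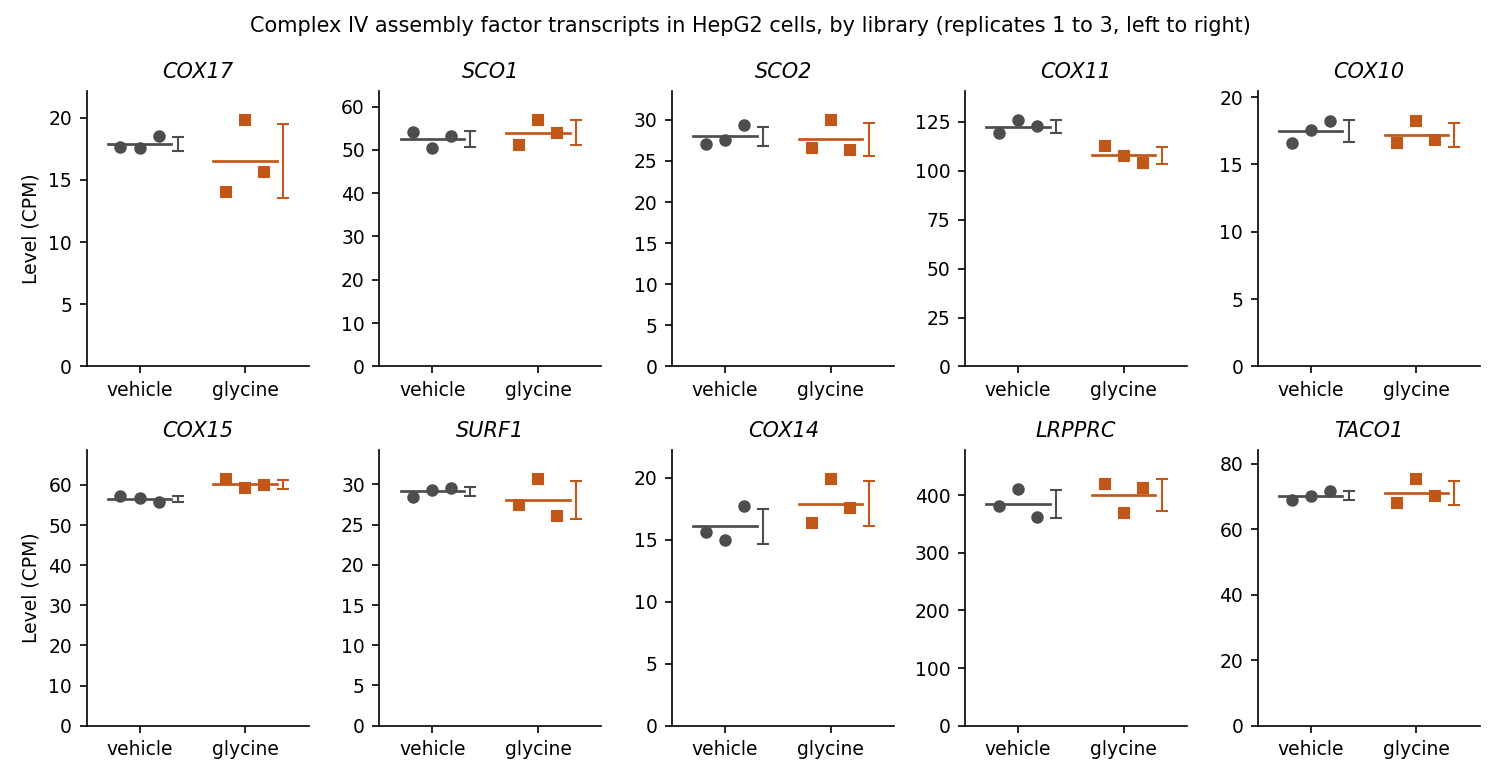
Level in CPM of each assembly factor in the 3 vehicle libraries (circles) and the 3 glycine libraries (squares), with the group mean (line) and SD (bar beside the points) and every axis starting at 0. The groups do not overlap for COX11, at 119 to 126 against 104 to 112 CPM, and for COX15, at 55.7 to 57.3 against 59.2 to 61.4 CPM.

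For heme a, the 2 enzymes differed in their spread. COX15, which converts heme o to heme a (ENSG00000014919; chr10:99711844-99732100, minus strand), stood at 57.3, 56.7 and 55.7 CPM in vehicle and at 61.4, 59.2 and 59.9 CPM in glycine. Every glycine library was above every vehicle library. The log2 change was nevertheless small, 0.09 ± 0.0594, and did not pass the test (adjusted p = 0.366, edgeR). COX10, the farnesyltransferase that makes heme o (ENSG00000006695; chr17:14069496-14208677, plus strand), stood at 16.6, 17.6 and 18.2 CPM in vehicle and at 16.6, 18.2 and 16.8 CPM in glycine. These groups overlapped almost fully, with a log2 change of −0.02 ± 0.0772 and an adjusted p of 0.901 by edgeR. No other gene overlaps the exons of COX10 or COX15.

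COX11 and COX15 were the only members whose groups did not overlap, 2 of 10 (20%). Over all genes tested, 31.6% did not overlap, so the share among the members was not above the background.

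FDX2 and FDXR, a ferredoxin and its reductase known to donate electrons for heme a synthesis, did not pass the test either. FDX2 was at 4.35 ± 0.368 CPM in vehicle and 4.37 ± 0.303 CPM in glycine (SD, n = 3), and other genes cover 70.9% of its exon length. FDXR was at 181 ± 7.31 and 185 ± 8.88 CPM, with a log2 change of 0.03 ± 0.0639 and an adjusted p of 0.777 by edgeR.

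SURF1 and COX14 act early in the assembly of MT-CO1. SURF1 (ENSG00000148290; chr9:133351755-133356676, minus strand) stood at 28.5, 29.4 and 29.6 CPM in vehicle and at 27.4, 30.6 and 26.1 CPM in glycine. Its log2 change was −0.05 ± 0.0743, with an adjusted p of 0.706 by edgeR. SURF2, on the opposite strand, shares 6.8% of its exon length. COX14 (ENSG00000178449; chr12:50111979-50120457, plus strand), which couples MT-CO1 synthesis to assembly, stood at 15.6, 14.97 and 17.7 CPM in vehicle and at 16.3, 19.9 and 17.5 CPM in glycine. Its log2 change, 0.16 ± 0.0933, was the highest of the members but did not pass the test (adjusted p = 0.296, edgeR). Another gene (ENSG00000272368) shares 9.8% of the COX14 exon length on the same strand and had at most 13 counts in a library. The ranges of SURF1 and COX14 overlapped between groups.

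LRPPRC and TACO1 act on mitochondrial mRNAs and their translation. LRPPRC (ENSG00000138095; chr2:43886508-43996005, minus strand) stood at 380, 410 and 362 CPM in vehicle and at 419, 369 and 412 CPM in glycine. Its groups overlapped, with a log2 change of 0.06 ± 0.0741 and an adjusted p of 0.662 by edgeR. TACO1 (ENSG00000136463; chr17:63600872-63608365, plus strand) stood at 69.0, 70.3 and 71.6 CPM in vehicle and at 68.2, 75.3 and 70.1 CPM in glycine. Its log2 change was 0.02 ± 0.0628, with an adjusted p of 0.885 by edgeR. SLIRP, which forms a complex with LRPPRC, had a log2 change of 0.07 ± 0.101 and an adjusted p of 0.690 by edgeR.

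The MT-CO1 mRNA, whose translation TACO1 supports, stood at 5401, 7720 and 4876 CPM in vehicle and at 5160, 6175 and 5697 CPM in glycine. Vehicle replicate 2 lay above the other 5 libraries, and the groups overlapped. The log2 change of MT-CO1 was −0.08 ± 0.145, that of MT-CO2 −0.07 ± 0.136 and that of MT-CO3 0.07 ± 0.119, with adjusted p of 0.774, 0.804 and 0.738 by edgeR. The intervals were wider than those of the members, that of MT-CO1 running from −0.39 to 0.23. Summed over the 13 mitochondrial mRNAs, the level ranged from 18805 to 28061 CPM in vehicle and from 18701 to 24312 CPM in glycine. An exact permutation test of this sum gave p = 0.8 (two-sided); its smallest possible p is 0.1 with 3 libraries against 3.

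The members summed to 786, 820 and 779 CPM in vehicle and to 813, 786 and 802 CPM in glycine (exact permutation p = 0.7). LRPPRC had the most counts of the members, and without it the sums were 405, 410 and 417 CPM in vehicle and 394, 418 and 390 CPM in glycine (exact permutation p = 0.4). Neither pair of groups was separated, and the smallest p the design allows would not have passed 0.05.

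Levels can be compared between genes only per length, here as CPM per kilobase of the exon length given in the files, averaged over the 6 libraries. LRPPRC stood at 40.2 (range over libraries 37.1 to 42.9) and TACO1 at 30.6 (29.5 to 32.5), and each was clear of the next gene in the order. SCO2 at 20.4, COX11 at 17.8, SURF1 at 16.2, COX14 at 15.8 and COX15 at 14.0 CPM per kilobase followed, and each overlapped its neighbour in range. COX17 at 7.92 (6.48 to 9.13) was below COX15 and above COX10. COX10 at 5.47 (5.22 to 5.75) and SCO1 at 5.21 (4.94 to 5.56) came last and overlapped. On this length the translation and mRNA factors were the most abundant, and a copper factor and a heme a factor the least.

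The order depended on the length used for some genes. With the length of the principal transcript in GENCODE 29, chosen after the data were seen, LRPPRC, TACO1, SURF1, COX10 and SCO1 kept their places, and LRPPRC was still clear of the next gene. TACO1 was not, at 48.2 (46.4 to 51.3) CPM per kilobase beside 46.2 (41.6 to 50.4) for COX11. COX11 moved from 17.8 to 46.2 CPM per kilobase and from place 4 to 3. COX17 moved from 7.92 to 25.6 and from place 8 to 6, where its range overlapped that of COX15. Their principal transcripts have 2497 and 672 bases, against 6488 and 2172 bases for all annotated exons together. For SCO1 the lengths were close, at 9612 and 10230 bases.

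**Figure D3:**
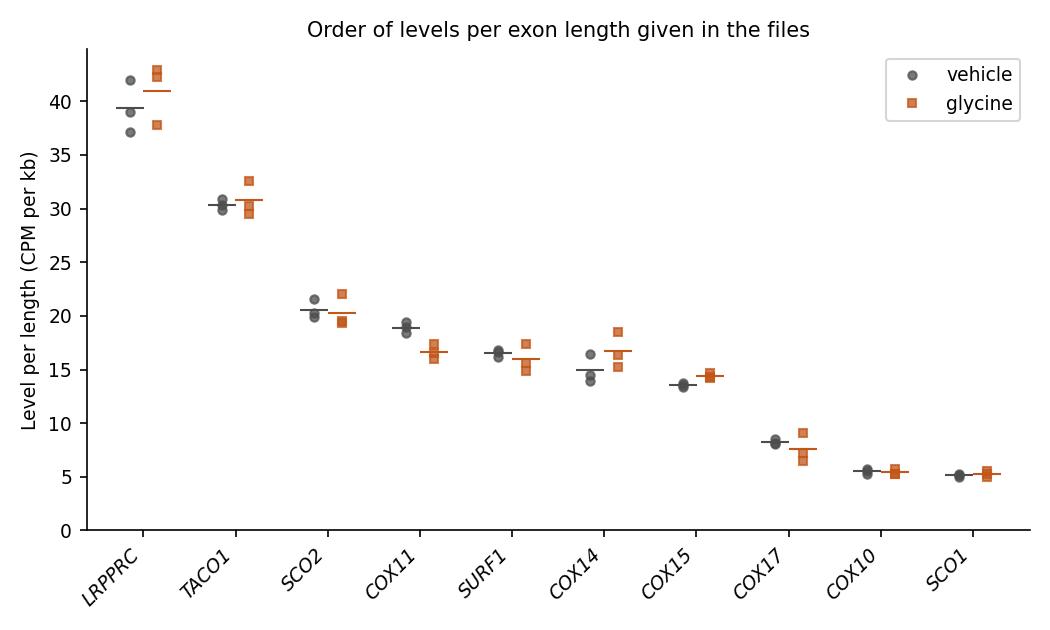
Level of each assembly factor in CPM per kilobase of annotated exon length, ordered by the mean over the 6 libraries, with 1 point per library. LRPPRC (37.1 to 42.9) and TACO1 (29.5 to 32.5) lie apart from the others on this length, though TACO1 overlaps COX11 on the principal transcript length, and SCO1 and COX10 lie lowest with overlapping ranges.

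Within groups, several members were highest in the same libraries, a pattern picked out after the values were seen. SCO2, SURF1, COX10, COX14, COX17 and TACO1 were each highest in vehicle replicate 3 among the vehicle libraries and in glycine replicate 2 among the glycine libraries. The same held for 17.1% of all genes tested. LRPPRC ran the other way and was lowest in these same libraries. Glycine replicate 2 was also the deepest library and was the highest glycine library for 7 members, beside 35.2% of all genes tested. The part of depth in this pattern was not tested. The coefficient of variation within a group ranged from 1.43% (COX15, vehicle) to 18.1% (COX17, glycine) over the members. The biological coefficient of variation that edgeR assigned to them, 5.57% to 9.12%, lay on both sides of the median of 7.39% over all genes tested.

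A further 20 factors of complex IV assembly were all tested. Of these, 1 (5%) rose and 0 fell with glycine, beside 13.3% called of all genes tested. The median log2 change was 0.03. The gene that rose was COA4 (ENSG00000181924), a twin CX9C protein of the intermembrane space. It stood at 46.1, 49.7 and 52.9 CPM in vehicle and at 59.6, 61.7 and 59.4 CPM in glycine. The groups did not overlap, the log2 change was 0.28 ± 0.0673 and the adjusted p was 0.0145 by edgeR. This call was lost without vehicle replicate 1, glycine replicate 1 or glycine replicate 2, with adjusted p up to 0.0807.

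Of the 15 nuclear-encoded subunits of the enzyme, 11 were tested and 0 were called by edgeR, DESeq2 or limma, with log2 changes from −0.19 to 0.16 and a median of −0.01. The subunit at an unadjusted p under 0.05 was COX6C, named after its value was seen, at a log2 change of −0.19 ± 0.0747 (adjusted p = 0.108, edgeR). The tissue-restricted forms COX4I2, COX6A2, COX6B2 and COX7A1 had too few counts to be tested, with 17 or fewer each over all libraries. Of the 13 mitochondrial mRNAs, 0 were called by these 3 tools, 0 had an unadjusted p under 0.05, and the median log2 change was −0.13. As background for both lists, 13.3% of the 15492 genes tested were called by edgeR. An unadjusted p under 0.05 by edgeR was found for 4225 of the 15492.

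**Figure D4:**
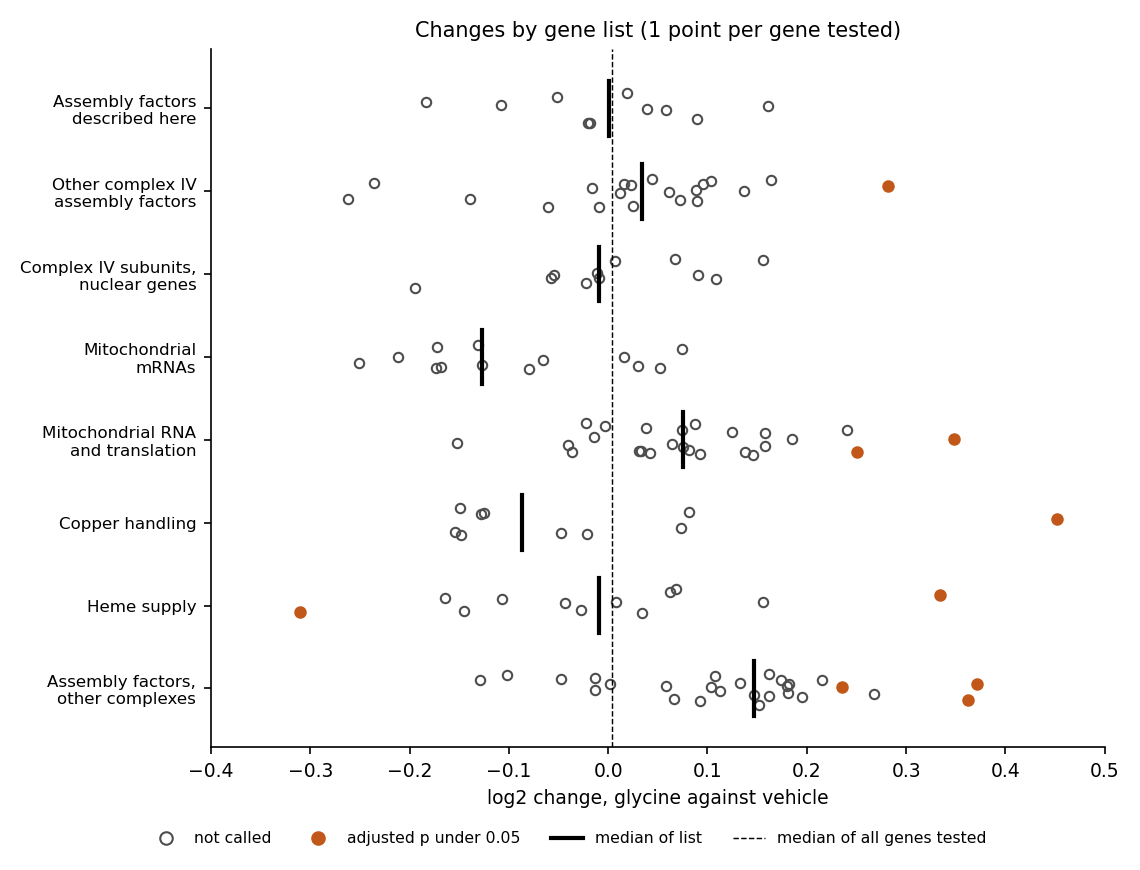
Log2 change with glycine against vehicle of every tested gene in 8 lists (points), with the median of the list (bar) and the median of all 15492 genes tested (dashed line). Filled points mark the genes called by edgeR, 0 of 10 among the assembly factors described here and 3 of 27 among assembly factors of the other complexes, beside 13.3% of all genes tested.

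Around LRPPRC and TACO1, 25 genes of mitochondrial RNA handling and translation were tested. Of these, 2 (8%) rose and 0 fell, beside 13.3% called of all genes tested, and the median log2 change was 0.08. FASTKD1, an RNA-binding mitochondrial protein, went from 12.1 ± 0.593 to 15.4 ± 0.363 CPM (SD, n = 3). This log2 change, 0.35 ± 0.0786, had an adjusted p of 0.0107 by edgeR. It lost its call without glycine replicate 3, at an adjusted p of 0.0526. PNPT1, a mitochondrial exoribonuclease, went from 41.2 ± 3.12 to 49.0 ± 3.16 CPM (adjusted p = 0.0432, edgeR). It lost its call whichever library was left out and with upper-quartile scaling, with adjusted p up to 0.198.

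The 10 tested genes of copper handling in the wider cell had 1 rise and 0 falls, with a median log2 change of −0.09. This was 10% called, beside 13.3% of all genes tested. The rise was that of CP, which encodes the secreted copper protein ceruloplasmin, from 37.4 ± 2.85 to 51.2 ± 6.85 CPM. Its log2 change was 0.45 ± 0.0936, at an adjusted p of 0.00667 by edgeR. Another gene, on the opposite strand, covers 19.4% of the CP exon length. Of 12 tested genes that supply heme, or electrons for its conversion to heme a, 1 rose and 1 fell. This was 16.7% called, beside the same 13.3%. ALAD, an enzyme of heme synthesis, fell from 55.4 ± 1.57 to 44.6 ± 1.87 CPM (adjusted p = 0.00632, edgeR). The calls of CP and ALAD were kept under all 14 alternatives.

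The assembly factors of the other respiratory complexes gave 3 rises and 0 falls among 27 genes, or 11.1% called beside 13.3% of all genes tested. Their median log2 change was 0.15, beside 0.00 for the 10 complex IV members and 0.00 for all genes tested, and 22 of them were above 0. The difference between these lists was not tested. All 3 rises were among the 6 factors of complex III, a grouping made after the values were seen. The Rieske protein chaperone LYRM7 stood at 14.6 to 15.7 CPM in vehicle and at 18.7 to 20.8 CPM in glycine. Its rise was 0.37 ± 0.0772 on the log2 scale (adjusted p = 0.0068, edgeR). UQCC2, which serves cytochrome b synthesis, went from 55.0 ± 3.87 to 70.5 ± 11.0 CPM (adjusted p = 0.0261, edgeR), and lost its call when replicate 1 or 2 of vehicle or replicate 2 of glycine was left out, with adjusted p up to 0.111. BCS1L, which inserts the Rieske protein, went from 33.5 ± 1.98 to 39.4 ± 1.70 CPM (adjusted p = 0.0402, edgeR), and 6 of 14 alternatives ended its call, with adjusted p up to 0.166. Genes on the opposite strand cover 24.1% of the UQCC2 exon length and 14.1% of that of BCS1L.

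The hepatocyte identity of the cells was checked on 10 marker genes, all of which were tested. Their summed level ranged from 31503 to 35428 CPM in vehicle and from 27610 to 31119 CPM in glycine (exact permutation p = 0.1, the smallest possible). TTR and APOA1 fell, 2 of the 10 (20%), beside 13.3% called of all genes tested, and APOA1 lost its call under 9 of 14 alternatives. Of the 10, 8 had a log2 change below 0. Their median was −0.23, beside 0.00 over all genes tested. Of 6 markers of leukocytes, macrophages, endothelium and fibroblasts, PTPRC and DCN had 9 and 3 counts in all and were not tested. The 6 summed to 8.11 to 8.79 CPM in vehicle and 10.1 to 11.1 CPM in glycine. Of the 4 tested, 2 were called higher (CD68 and COL1A1) and 1 lower (VWF), or 75% beside 13.3% of all genes tested. Under the 14 alternatives CD68 lost its call in 6, VWF in 7 and COL1A1 in 0. Other genes cover 85.8% of the CD68 exon length, 81.7% on the same strand, so its counts may not be its own. The part of these shifts in the values of COA4 and the other called genes was not tested.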

How the data were processed

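RNA of 6 HepG2 libraries was sequenced, and the authors deposited raw counts of reads per gene, 1 file per library. The submitters' processing notes name Trimmomatic 0.36, STAR 2.5.2b, featureCounts of Subread 1.5.2 and GRCh38. The strand setting and annotation release are not given in the sources used here. Gene names came from a table of Ensembl identifiers (56410 of 57500) and then from GENCODE 29 (56889). Coordinates of 54707 genes equalled those of GENCODE 29 and were read as GRCh38.

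The deposited counts were tested with edgeR 4.0.16 in R 4.3.3 (quasi-likelihood F test, two-sided, trimmed mean of M values scaling, filterByExpr with a minimum count of 10 and total of 15, group as the only term). The 15492 genes left were adjusted together by the Benjamini-Hochberg method at 0.05. The standard error was the absolute log2 change divided by the square root of F. Alternatives were other scalings and filters, DESeq2 1.42.0, limma 3.58.1 with voom, a fit with the replicate block, and fits that each lacked 1 library. Sums were compared by exact permutation with SciPy 1.17.1. The scripts were tested on simulated data. Libraries of a group differed by a chi-square of 7.61 to 29.6 per degree of freedom, so none was a duplicate.

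The members and lists were chosen with earlier results of these data known. The genes named are all 10 members, in each other list every gene called (the 5 smallest p where more), MT-CO1, MT-CO2, MT-CO3, SLIRP, FDX2 and FDXR, and genes that overlap or copy a member. Of the genes this rule names, 1 is not reported here. Intervals and counts cover the spread of 3 replicates a group, which the series describes as independent.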

Additional observations from a re-analysis of the deposited data

How the results depend on the processing

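Of 140 values of the members under the 14 alternatives, 1 was called. That was COX11, the 1 member called lower by DESeq2. Among the other complex IV assembly factors, 1 was called lower with DESeq2 size factors, without the filter on low counts and with DESeq2, in each case COX20, named after its values were seen. Another gene, on the opposite strand, covers 72.0% of the COX20 exon length. Without the filter 1 mitochondrial mRNA, MT-ND6, was called lower, and with upper-quartile scaling 1 gene of mitochondrial RNA and translation was called higher. Total count scaling gave 1149 genes higher and 906 lower, or 55.9% of calls higher against 50.7%, and called no member.

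Leaving out each library in turn gave 587 to 926 genes higher and 655 to 1010 lower, with fewer libraries to fit. It gave 0 to 1 higher and 0 to 2 lower among the other complex IV assembly factors, 0 to 1 higher in mitochondrial RNA and translation, 0 to 1 lower in copper handling and 1 to 4 higher among assembly factors of the other complexes. The sign turned in some of these fits for SCO1 (log2 −0.000729 to 0.0651), SCO2 (−0.083 to 0.0174), COX10 (−0.0667 to 0.012), TACO1 (−0.0234 to 0.0381), the summed members (−0.00376 to 0.0337) and the summed mitochondrial mRNAs (−0.19 to 0.12), none of which passed a test in any fit. COX14 (0.08 to 0.24), COX17 (−0.27 to −0.02), LRPPRC (0.01 to 0.11) and SURF1 (−0.12 to −0.01) kept their sign but moved over 1.5 times. The cause was not tested. The replicate block gave 866 genes higher and 918 lower and ended the call of BCS1L. The numbers were not taken to pair the libraries. The study describes biological replicates as experiments on different days, with control and treated cells in each run of its cell-based assays. Which of these libraries shared a day is not stated. Deviations of same-numbered libraries correlated at −0.0577, −0.0268 and −0.00258, and no library correlated best with its own number. The highest correlations were between libraries of other numbers. They were 0.214 for vehicle replicate 1 with glycine replicate 3 and 0.214 for vehicle replicate 2 with glycine replicate 1. That of vehicle replicate 3 with glycine replicate 2 was 0.18. A pairing of these libraries was not tested. Precision is limited by 3 libraries a group.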
